A study of Homo sapiens with 9 samples.

Results

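Of 110055 open chromatin regions of 22Rv1 cells, 530 were in peak lists of both stereoprobes, WX-02-23 and WX-02-43, and in no shortened vehicle list. Of these, 355 (67%) had a peak in a vehicle list at its full length. The 530 were chosen from 9 peak lists, each shortened to its 81962 peaks of highest −log10 p on chromosomes 1 to 22 and X. Intervals were merged wherever they shared at least 1 bp. A list held a merged region when any of its peaks lay in it. A member was held by at least 5 of the 6 stereoprobe lists and by none of the 3 DMSO lists. The presence of peaks in treated lists and their absence from DMSO lists therefore chose the members, and these values are given below as a description with no test. ATAC-seq, which marks open chromatin by transposase insertion, was run on 22Rv1, a human prostate carcinoma line, edited in every group so that the splicing factor SF3B1 carries C1111S. The vehicle group was given 0.1% DMSO, and the stereoprobe groups were given WX-02-23 or WX-02-43 at 20 µM, each for 3 h with 3 libraries. Every group carries the SF3B1 edit, unedited cells were not analysed here, and the labels do not say whether the edited line is 1 clone. A bulk library cannot tell a site open in more cells from a site that is more open in each cell.

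The series concerns FOXA1, a forkhead transcription factor. Pioneer factors of this kind bind sites on nucleosomal DNA and make them accessible to other regulators, and in prostate luminal cells FOXA1 opens enhancers that the androgen receptor then uses. Whether a caller reports a peak at such a site depends on how far its signal stands above the local background. SF3B1, a core subunit of the spliceosome, is carried in its edited form by all cells measured here. Genes near the regions are not named, because an annotation of hg19, the build of the lists, was not used here, and the markers of the labelled cell type were not checked for the same reason.

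The deposited lists held 81962 to 105132 peaks, and shortening removed 0% to 22% of each. DMSO replicate 1 was the shortest and was kept whole. The weakest peak kept therefore had a −log10 p of 4.1 in DMSO replicate 1 and 5.25 in WX-02-43 replicate 1, against 6.94 to 9 in the other 7 lists. In the regions held by all 9 lists the median summit held 32 to 41 fragments per list. Read totals were not used here, so the depth of the libraries is not known. Nothing in the labels tells whether the 3 libraries of a group came from separate cultures, so the p-values below rest on library-to-library spread that may be technical only.

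Regions held with both stereoprobes and by no shortened DMSO list made up 0.482% of merged regions. The same criterion with WX-02-43 as the absent group, that is at least 5 of the 6 DMSO and WX-02-23 lists, gave 408 regions or 0.371%. With WX-02-23 as the absent group it gave 1393 regions or 1.27%. The number of regions set apart by the vehicle was thus closer to the number set apart by WX-02-43 than to the number set apart by WX-02-23. Leaving out a library raised the number of members by over 1.5 times for DMSO replicates 1, 2 and 3 (to 909, 962 and 1120) and for replicates 1, 2 and 3 of WX-02-43 (to 938, 914 and 939). The WX-02-43-absent count did so without DMSO replicates 1 to 3 (740, 692 and 704), WX-02-23 replicates 2 and 3 (641 and 636) or WX-02-43 replicates 1 to 3 (808, 894 and 877). The WX-02-23-absent count did so without WX-02-23 replicate 1 (2149). A rise follows from the criterion, which fewer lists then had to meet. Its size differed by group, since members numbered 701, 730 and 704 without WX-02-23 replicates 1, 2 and 3. The reason for this difference in size was not tested.

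Members were weak peaks, and the 2 stereoprobes did not hold them equally. All 6 lists held 148 members (27.9%). A further 289 (54.5%) were held by the 3 WX-02-23 lists and 2 WX-02-43 lists, and 93 (17.5%) by 2 WX-02-23 lists and 3 WX-02-43 lists. When 1 list was missing it was thus more often a WX-02-43 list. This lean was not particular to the members. Among other regions held by no shortened DMSO list, 447 were held by 3 WX-02-23 lists and 1 WX-02-43 list, and 114 by 1 and 3. The 3 WX-02-23 lists alone held 916, and the 3 WX-02-43 lists alone held 113. In the regions absent with WX-02-43, by comparison, 169 lacked a DMSO list and 144 lacked a WX-02-23 list. In those absent with WX-02-23, 350 lacked a DMSO list and 363 lacked a WX-02-43 list, which is close to even.

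**Figure D1:**
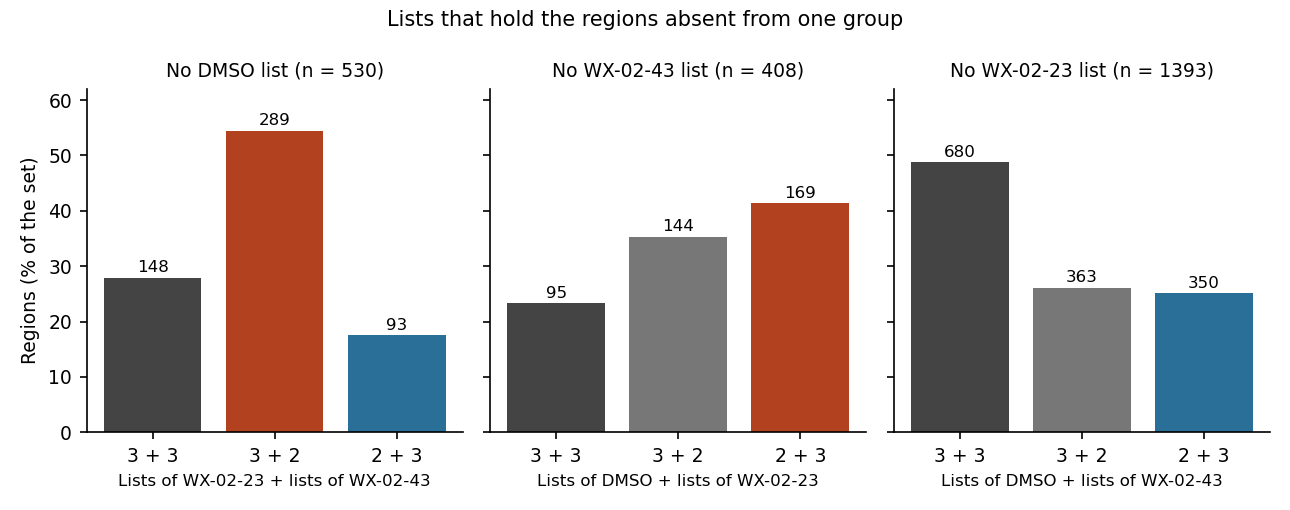
Share of each set (y axis, percent) by the number of lists that held the region in each of the 2 present groups (x axis), with region counts above the bars. Among the 530 regions held by no shortened DMSO list, the bar for 3 WX-02-23 and 2 WX-02-43 lists (289) stands above that for 2 and 3 (93). The corresponding bars are nearer to each other in the sets held by no shortened WX-02-43 list or no shortened WX-02-23 list.

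Per library, 510, 483 and 504 members had a peak in WX-02-23 replicates 1 to 3, and 422, 438 and 441 in WX-02-43 replicates 1 to 3. Every WX-02-23 list held more members than any WX-02-43 list. The median rank, counted from 1 at the strongest peak, was 60781, 59264 and 58996 in the WX-02-23 lists and 69250, 69168 and 68888 in the WX-02-43 lists. Members thus sat in the lower part of every list, and lower with WX-02-43. Regions held by all 9 lists had median ranks of 27720 to 28034. The median fold enrichment of members over the local background, the authors' own value for each peak, stood at 6.87, 6.43 and 6.62 in the WX-02-23 lists, above the 5.31, 5.81 and 5.81 of the WX-02-43 lists. Part of that gap was common to the lists, since regions held by all 9 had median folds of 9.53, 9.16 and 9.35 with WX-02-23 and 8.56, 8.87 and 8.96 with WX-02-43. Folds of the stereoprobes are therefore given as a description, and ranks are used to compare them. The median summit held 14 to 18 fragments with WX-02-23 and 12 to 15 with WX-02-43, against 32 to 41 in regions held by all 9 lists.

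**Figure D2:**
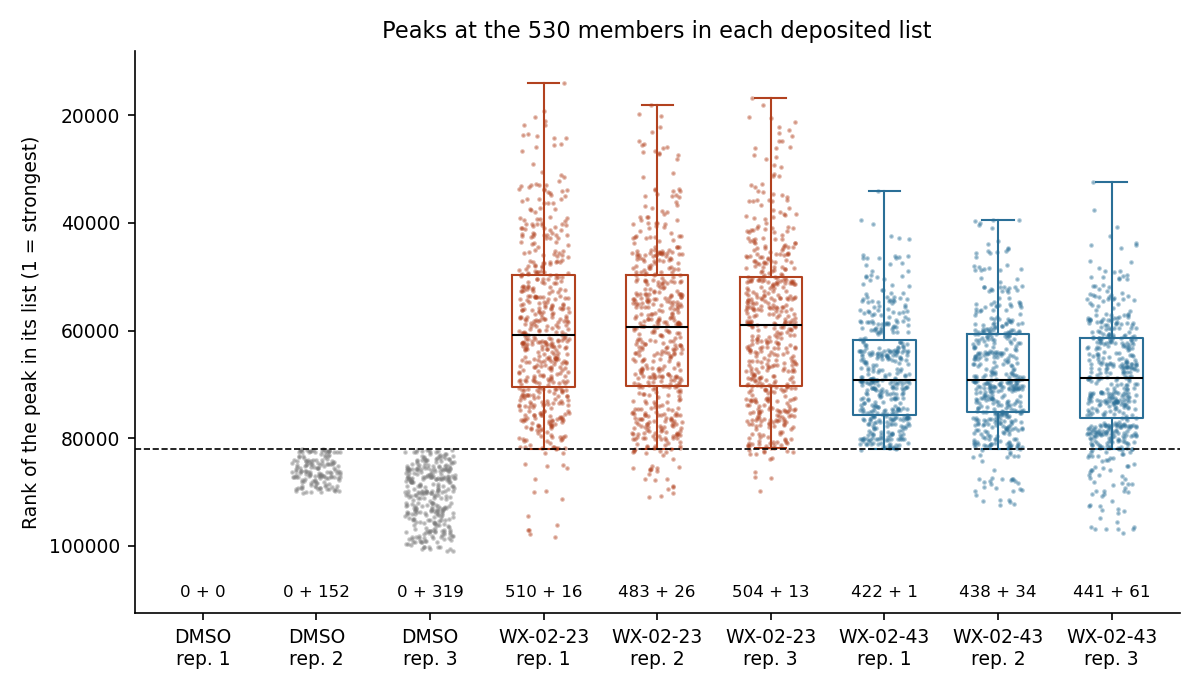
Rank of the strongest peak at each of the 530 members (y axis, 1 is the strongest) in each of the 9 deposited lists (x axis). Boxes span the quartiles and whiskers the full range of peaks within the shortened lists, the dashed line marks rank 81962, and the numbers give peaks above and below that line. DMSO replicates 2 and 3 had peaks at 152 and 319 members, all below the line.

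Most members were missing from the shortened DMSO lists but not from every DMSO list as deposited. DMSO replicate 1 was not shortened and had no peak at any member. In the lists as deposited, 355 of the 530 members (67%) had a DMSO peak past rank 81962. Such a peak was in 1 list at 239 members and in 2 lists at 116. The peaks numbered 152 in replicate 2 and 319 in replicate 3, while replicate 1 has no peaks past that rank. Their median fold was 4.8 and 4.93, with a median of 10 and 11 fragments at the summit. Their summits lay a median of 46 bp from the mean summit of the member, and 385 of the 471 peaks (81.7%) lay within 100 bp. Only vehicle peaks that overlapped a member were counted, so this closeness follows in part from the counting. In the regions absent with WX-02-43 and with WX-02-23 the shares within 100 bp were 82.5% and 82.6%. The low fold of the vehicle peaks follows from the rule. DMSO peaks past that rank at all merged regions without a stronger one had medians of 4.67 and 4.92. The comparison regions behaved alike, since 279 of 408 (68.4%) had a WX-02-43 peak past the same rank. Among the regions absent with WX-02-23, 846 of 1393 (60.7%) had a WX-02-23 peak past it.

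The remaining 175 members (33%) had no DMSO peak in any deposited list. Under WX-02-23 and WX-02-43 their median folds were 6.62 and 5.45, against 6.51 and 5.59 for members with a weak DMSO peak. All 6 stereoprobe lists held 31 of these 175 and 117 of the other 355. Members without any vehicle peak were thus less often held by all 6 lists, a difference that was not tested, while the folds of the peaks that were held were similar. Where a list has no peak, signal may still have been present below the calling threshold.

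The first 12 members held by all 6 stereoprobe lists, ordered by the weakest of their 6 ranks, are the least weak by that measure. Their weakest ranks ran from 55151 to 65819 in lists of 81962 peaks. The first lay on chromosome 9 from 76078471 to 76079090, with folds of 12.87, 8.02 and 12.11 in WX-02-23 replicates 1 to 3 and 6.73, 8.98 and 8.93 in WX-02-43 replicates 1 to 3. The stereoprobe groups overlapped there, and DMSO replicates 2 and 3 had weaker peaks of 4.8 and 5.38 fold past rank 81962. The next, on chromosome 12 from 33291868 to 33292641, had folds of 10.82, 8.29 and 8.1 with WX-02-23 and 8.11, 7.13 and 7.88 with WX-02-43. One WX-02-23 value fell within the WX-02-43 range, and DMSO replicate 3 reached 4.48. On chromosome 3 from 190113500 to 190113801 the folds were 9.97, 6.64 and 7.3 with WX-02-23 and 7.93, 7.94 and 6.94 with WX-02-43, so the groups overlapped, and DMSO replicate 3 had 5.43.

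The fourth member, on chromosome 3 from 106268464 to 106269100, had the best rank of any member in any list, 13931 in WX-02-23 replicate 1. Its folds were 16.61, 11.87 and 13.19 with WX-02-23 and 6.3, 7.97 and 10.79 with WX-02-43, with no overlap, and DMSO replicate 3 had 5.38 past rank 81962. The twelfth, on chromosome 7 from 18688828 to 18689438, showed a wider gap, at 12.14, 13.51 and 13.72 against 6.75, 6.26 and 8.3, with 4.93 in DMSO replicate 3. At both sites the WX-02-23 values lay above the WX-02-43 values, while the low DMSO values follow from the rule. The fifth and eighth had no DMSO peak in any deposited list. The fifth lay on chromosome X from 48501588 to 48502278, at 9.19 ± 2.58 fold with WX-02-23 and 6.97 ± 0.6 with WX-02-43 (SD, n = 3 each). The eighth, on chromosome 3 from 22877138 to 22877621, averaged 7.49 ± 1.03 and 7.09 ± 1.08 (SD, n = 3 each), a difference smaller than the spread between replicates.

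The other 5 were close to these in size. Mean folds with WX-02-23 and WX-02-43 were 7.02 ± 0.62 and 5.78 ± 0.26 on chromosome 19 from 15413856 to 15414415, and 7.05 ± 0.85 and 5.85 ± 0.2 on chromosome 3 from 24419564 to 24420156 (SD, n = 3 each). They were 9.17 ± 1.84 and 6.68 ± 0.81 on chromosome 4 from 104676031 to 104676417, and 7.07 ± 0.29 and 5.97 ± 0.01 on chromosome 9 from 124764641 to 124765144 (SD, n = 3 each). On chromosome 3 from 192284571 to 192284820 they were 7.67 ± 1.39 and 7.02 ± 0.86 (SD, n = 3 each). Each of these 5 also had a DMSO peak in replicate 2 or 3 past rank 81962, of 4.19 to 5.21 fold. Chromosome 3 carried 5 of the 12, and 7.17% of all members and 6.34% of all merged regions. This difference was not tested.

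**Figure D3:**
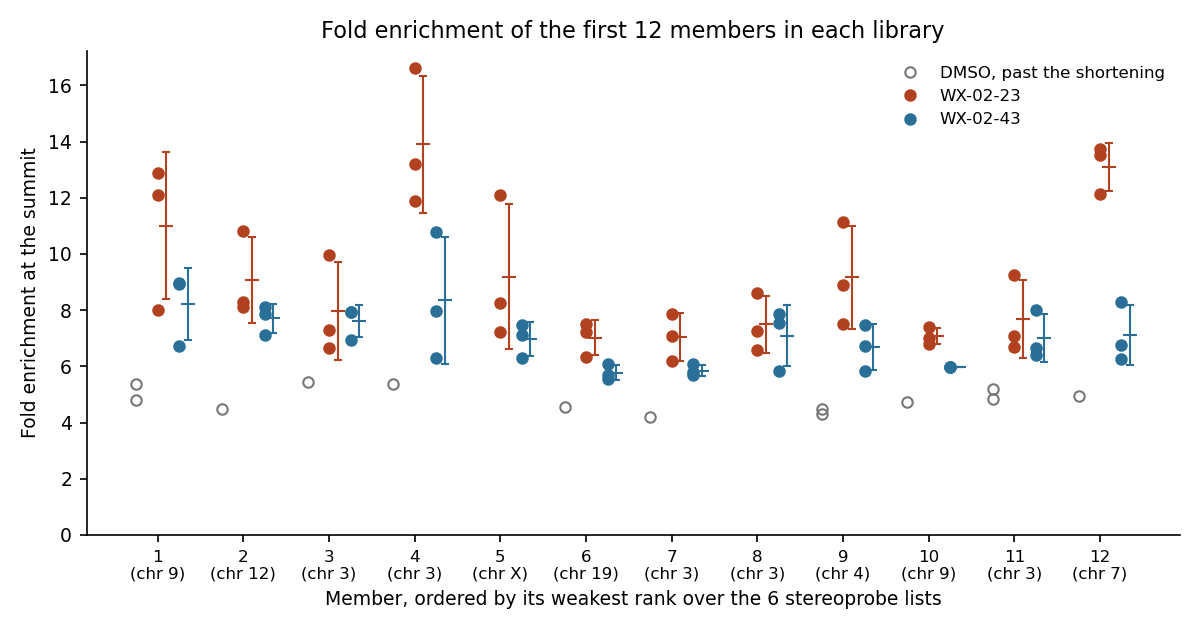
Fold enrichment at the summit (y axis) of the first 12 members held by all 6 stereoprobe lists (x axis, in order of their weakest rank). Filled points are single libraries, bars give the mean and SD of 3 libraries, and open points are DMSO peaks past rank 81962. The mean fold with WX-02-23, whose lists run higher in general, lies above that with WX-02-43 at all 12, by the most at the twelfth (13.1 against 7.11) and by the least at the third (7.97 against 7.61), and every DMSO point lies at 5.43 or lower.

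Members held by 5 lists looked similar. On chromosome 6 from 136973799 to 136974136, WX-02-23 gave 6.51, 6.36 and 6.98 fold, WX-02-43 replicates 1 and 2 gave 5.54 and 6.02, and replicate 3 had no peak. On chromosome 4 from 39623249 to 39623521 the WX-02-23 folds were 8.83, 6.92 and 6.72 and those of WX-02-43 replicates 1 and 2 were 6.32 and 7.55, with no peak in replicate 3 and no DMSO peak in any list. On chromosome 2 from 34329649 to 34330071, WX-02-23 gave 11.41, 11.66 and 10.84, and WX-02-43 gave 6.3 and 7.47 in replicates 1 and 3. Replicate 2 there had a peak of 5.03 fold past rank 81962, beside a DMSO peak of 4.8. On chromosome 9 from 83986787 to 83987104, WX-02-23 gave 8.58, 7.8 and 7.15 and WX-02-43 replicates 2 and 3 gave 7.97 and 7.05. All 4 lacked a WX-02-43 list and none lacked a WX-02-23 list.

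Many regions lay close to the criterion. In 375 members (70.8%) the weakest peak counted stood in the last 10% of its shortened list. The weakest members were on chromosome 7 from 30279300 to 30279592, with ranks of 63673, 54455 and 65925 with WX-02-23 and 72644 and 81939 with WX-02-43, and on chromosome 1 from 89530742 to 89531174, with a rank of 81937 in WX-02-23 replicate 2. Just outside, 467 regions were held by the 6 stereoprobe lists and 1 DMSO list, and 867 by 4 stereoprobe lists and no DMSO list. On chromosome 1 from 169269571 to 169270039, DMSO replicate 1 gave 8.4 fold beside 9.53 ± 1.35 with WX-02-23 and 8.15 ± 0.76 with WX-02-43 (SD, n = 3 each). On chromosome 17 from 3466273 to 3466714, DMSO replicate 3 gave 8.78 beside 8.64 ± 0.87 and 6.8 ± 0.74 (SD, n = 3 each). At both, 1 DMSO library lay near the stereoprobe libraries in strength. Past rank 81962, DMSO replicates 2 and 3 had 4.8 and 4.93 fold on chromosome 1, and DMSO replicate 2 had 4.4 on chromosome 17. On chromosome 3 from 12462638 to 12463060, the 3 WX-02-23 lists averaged 10.8 ± 1.09 fold (SD, n = 3), WX-02-43 replicate 1 had 6.81, and the other 2 WX-02-43 lists had 4.66 and 4.51 past rank 81962. On chromosome 10 from 124624235 to 124624777 the values were 10.5 ± 0.46 (SD, n = 3) and 7.47 in 1 WX-02-43 list.

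With deposited lists at full length the criterion gave 607 regions, and 173 of the 530 members (32.6%) were among them. With the 50000 strongest peaks of each list it gave 313 regions, and 3 of the 530 members (0.566%) overlapped one. The size of the set relative to all regions was thus similar, at 0.471% and 0.475%, while which regions entered it depended on where the lists ended. Every member had at least 1 counted rank of 55151 or weaker, past the end of those shorter lists.

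The stereoprobes were then compared with each other, at the same dose and time. This is the pair of compounds the design offers, and the rule asks the same of both groups. The rule did use the presence of peaks in these 6 lists and their absence from DMSO lists. The score difference varied with the number of DMSO lists, as given below. The contrast therefore cannot be taken as independent of how the members were chosen. Ranks were turned into normal scores, in which a higher score is a stronger peak, and limma was fitted to the 57254 regions held by all 6 stereoprobe lists. With Benjamini-Hochberg adjustment over all regions, 966 (1.69%) were stronger with WX-02-23 and 1161 (2.03%) with WX-02-43. Of the 148 members held by all 6 lists, 18 (12.2%) were stronger with WX-02-23 and 0 with WX-02-43 at the same threshold by limma. At an unadjusted p under 0.05 the limma counts were 43 and 0 among these members, and 4030 and 4122 among all 57254 regions. The median difference was 0.4 score units towards WX-02-23, against 0.005 over all regions tested, and 108 of the 148 differences had that sign. Differences ran from -0.87 to 2.33, and those of the first 12 members above from -0.04 at the third to 1.19 at the twelfth. These shares describe the members and are not a test of the set.

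Among the members past the threshold, the difference ran from 0.86 to 2.33 score units, and the 3 WX-02-23 ranks were stronger than the 3 WX-02-43 ranks at all 18. Over all 148, such separation was seen at 46 (31.1%) towards WX-02-23 and 5 (3.38%) towards WX-02-43, where all regions tested gave 9.34% and 9.43%. In the regions absent with WX-02-43, 95 were held by all 6 DMSO and WX-02-23 lists. Of these, 15 (15.8%) separated towards WX-02-23 and 7 (7.37%) towards DMSO, against 9.13% and 9.68% of all regions held by those 6 lists. In the 680 regions held by all DMSO and WX-02-43 lists and absent with WX-02-23, 58 (8.53%) separated towards WX-02-43 and 39 (5.74%) towards DMSO, against 6.73% and 6.96%.

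The first member by p lay on chromosome 2 from 239152682 to 239153195. Its ranks were 23867, 24858 and 20260 in the WX-02-23 lists and 78353, 80138 and 65254 in the WX-02-43 lists, with no overlap. The score difference was 2.1 ± 0.3 (SE; limma adjusted p = 5.0e-05, 95% interval 1.48 to 2.72), and the mean fold was 5.72 against 3.04. On chromosome 12 from 101436853 to 101437560 the ranks were 25956, 23162 and 16717 against 71723, 62895 and 80861, a difference of 1.99 ± 0.3 (SE; limma adjusted p = 7.7e-05). No deposited DMSO list had a peak there, and the summit held 41 to 52 fragments with WX-02-23 and 14 to 18 with WX-02-43.

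The twelfth member above, on chromosome 7 from 18688828, had ranks of 24188, 18065 and 18090 with WX-02-23 and 54742, 65819 and 47175 with WX-02-43. Its score difference was 1.19 ± 0.18 (SE; limma adjusted p = 1.0e-04). The fourth by p lay on chromosome 13 from 74678923 to 74679450, with ranks of 39268, 19836 and 23756 against 75047, 81641 and 77817. The difference was 2.33 ± 0.39 (SE; limma adjusted p = 2.6e-04), the mean fold 12.3 against 5.13, and no deposited DMSO list had a peak. Without the trend of variance on strength in the fit, the regions on chromosomes 12 and 7 had limma adjusted p = 0.066 and 0.051. In that fit 10 rather than 18 members passed. At an unadjusted p under 0.05 by limma it gave 55 members towards WX-02-23 and 6 towards WX-02-43. Among all 57254 regions the same counts were 3656 and 3675.

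**Figure D4:**
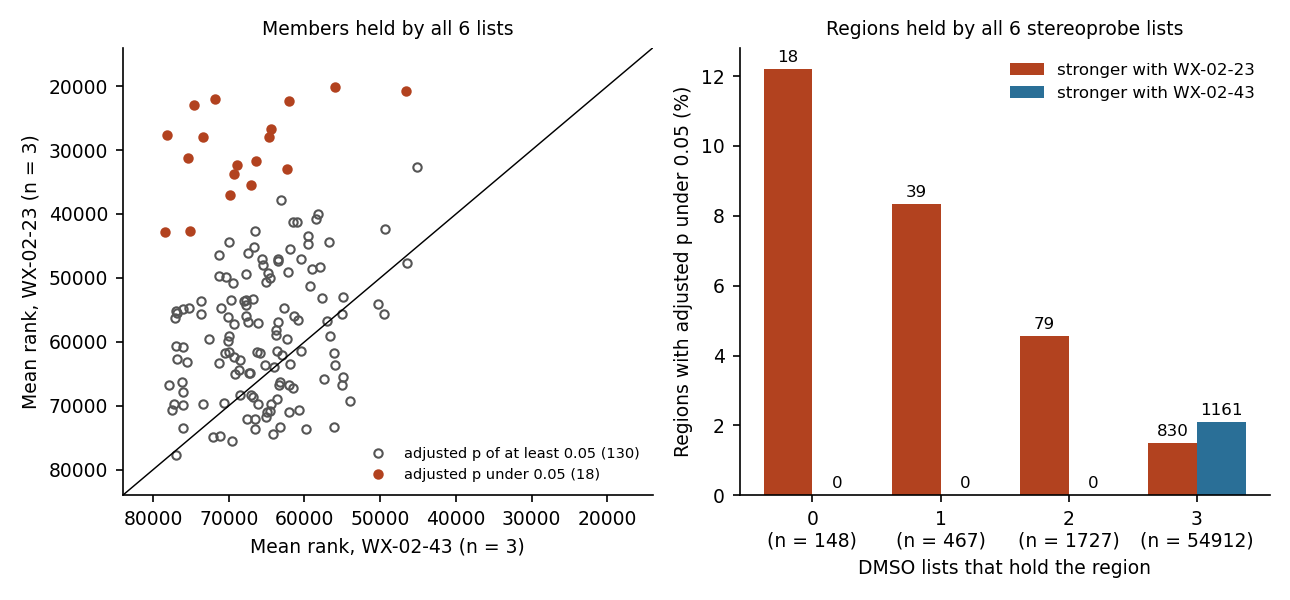
Left, mean rank over 3 WX-02-23 lists (y axis) against mean rank over 3 WX-02-43 lists (x axis) for the 148 members held by all 6, strongest at upper right, with equal ranks on the line. Right, percent of regions past the limma threshold in each direction (y axis) by the number of DMSO lists that held the region (x axis), with region counts above the bars. The 18 filled points lie on the side of WX-02-23. The share stronger with WX-02-23 is 12.2% with 0 DMSO lists and 1.51% with 3, groups that also differ in peak rank.

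The remaining 130 members did not pass, 90 with a positive and 40 with a negative difference. The lowest limma adjusted p among members stronger with WX-02-43 was 0.38. The 95% interval of a member's difference had a median half-width of 0.82, and for 105 of the 130 it reached 1 score unit or more on one side. Members that did not pass were thus not shown to respond alike to both compounds. Of the 31 tested members with no DMSO peak in any deposited list 3 passed, and of the 117 with a weak DMSO peak 15 passed.

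The limma calls are also given by the number of DMSO lists that held a region, the value that the rule used. These groups differ in strength. Their median mean ranks with WX-02-23 and WX-02-43 were 56638 and 66208 for 0 DMSO lists, and 28594 and 28480 for 3. The shares are therefore a description, and the part of peak strength in them was not tested. Among regions held by all 6 stereoprobe lists, 12.2% of those with 0 DMSO lists were stronger with WX-02-23, 8.35% with 1, 4.57% with 2 and 1.51% with 3. By limma, regions stronger with WX-02-43 numbered 0 among the 148, 467 and 1727 regions with 0, 1 or 2 DMSO lists (0, 6 and 34 at an unadjusted p under 0.05), and 1161 among the 54912 with 3. The median score difference was 0.404, 0.282, 0.115 and 0.002 in the same order. The count of all regions stronger with WX-02-23 moved by over 1.5 times without WX-02-23 replicate 1 (575) or 3 (576), and the count stronger with WX-02-43 without WX-02-43 replicate 1 (700), 2 (697) or 3 (662). Leaving out each library in turn changed the number of members tested to between 168 and 256. Of these, 12 to 27 (7.14% to 11.2%) passed towards WX-02-23 by limma, against 0.985% to 1.44% of all regions tested. Towards WX-02-43, 0 members passed (0 to 2 at an unadjusted p under 0.05 by limma), against 1.13% to 1.85% of all regions tested.

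Width, local background and position were shared in large part with other sets of weak regions. They were 193 to 839 bp wide with a median of 369 bp, against 408 bp for all merged regions and 643 bp for those held by all 9 lists. The medians were 331 bp in the regions absent with WX-02-43, 374 bp in those absent with WX-02-23 and 376 bp in the regions held by the 3 WX-02-23 lists alone. A merged width depends on how many peaks a region holds and how strong they are. The summits called in different lists spread over a median of 100 bp, against 88 bp in regions held by all 9 and 83 and 111 bp in the regions absent with WX-02-43 and with WX-02-23. The local background under a member stood at its list's commonest value in 37.8% to 42% of WX-02-23 peaks and 54.1% to 57.8% of WX-02-43 peaks. Over all peaks kept, that share was 18.8% to 21.1%. It was 33.5% to 43.9% in the lists that held the regions absent with WX-02-43, 46.1% to 51.1% in those that held the regions absent with WX-02-23, and 40.4% to 46.1% for the regions of the 3 WX-02-23 lists alone. A high share was thus common to these sets of weak peaks, and the part of peak strength in it was not tested.

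Members mostly lay several kb from regions open in every library, as the other sets did, weak or strong. The nearest region held by all 9 lists was a median of 16.7 kb away, with quartiles of 5.18 and 42.5 kb. For all merged regions the median was 13.1 kb, for the regions absent with WX-02-43 it was 11.4 kb, and for those absent with WX-02-23 it was 16.9 kb. Regions held by all 9 lists lay a median of 12 kb from the nearest other such region. Beyond 100 kb lay 52 members (9.81%), against 5.29% of all regions, 3.92% of those absent with WX-02-43, 7.47% of those absent with WX-02-23 and 8.52% of the 916 regions held by the 3 WX-02-23 lists alone. Within 1 kb of a region held by all 9 lists lay 48 members (9.06%). This was close to the 10.5% of all regions and the 9.96% of regions held by all 9 lists. Within 50 kb of another member lay 8 (1.51%), and the median distance to the next member was 1687 kb. The same values were 0.98% and 2079 kb among the 408 regions absent with WX-02-43 and 7.32% and 682 kb among the 1393 absent with WX-02-23, and this spacing depends on the size of a set.

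**Figure D5:**
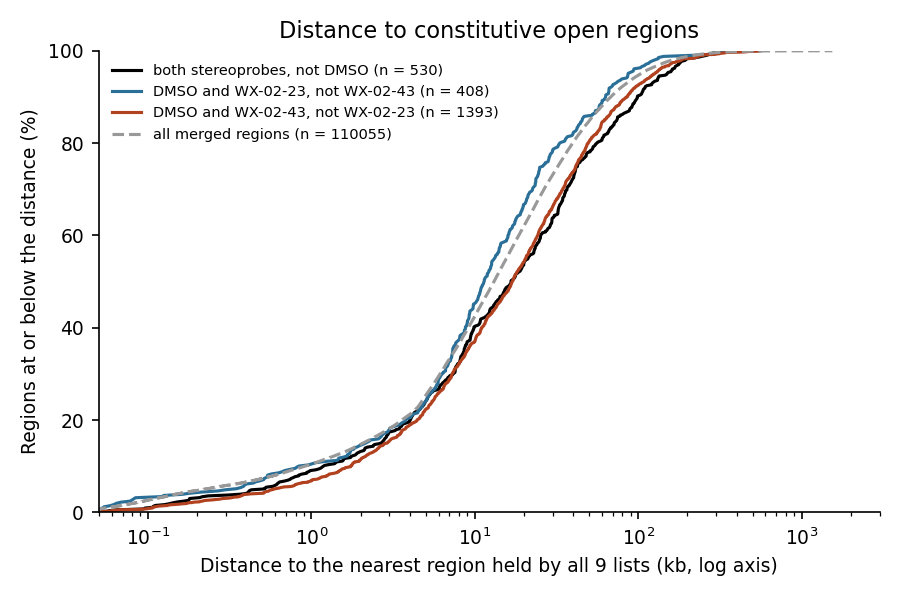
Cumulative percent of regions (y axis) by distance to the nearest region held by all 9 lists (x axis, kb, log scale), with distances under 0.05 kb drawn at that value. The 530 members follow the regions absent with WX-02-23, with medians of 16.7 and 16.9 kb, and lie to the right of the regions absent with WX-02-43 and of all merged regions, with medians of 11.4 and 13.1 kb.

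By chromosome, members were spread over 1 to 22 and X. Chromosome 1 held 54 (10.2%, against 9.78% of all regions) and chromosome 6 held 40 (7.55% against 5.75%). Chromosome 13 held 21 (3.96% against 2.75%), while chromosome 19 held 5 (0.943% against 3.71%). The share on chromosome 19 was likewise low in the regions absent with WX-02-23 (1.01%) and in those held by the 3 WX-02-23 lists alone (0.655%), and was 3.19% in the regions absent with WX-02-43.

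The strongest of the comparison regions lay on chromosome 11 from 68247675 to 68248072. It was held in DMSO at 10.5, 11.43 and 12.11 fold and with WX-02-23 at 10.67, 11.21 and 13.82, while WX-02-43 replicates 2 and 3 had peaks of 4.61 and 4.98 past rank 81962. The groups given DMSO and WX-02-23 overlapped. A second, on chromosome 20 from 14189539 to 14189937, averaged 8.73 ± 0.19 in DMSO and 8.74 ± 1.4 with WX-02-23 (SD, n = 3 each), with 4.2 in WX-02-43 replicate 2. The others, on chromosome 8 from 74335354 to 74335940 and on chromosome 11 from 69614343 to 69614629, lacked DMSO replicate 1. They averaged 8.14 ± 0.73 and 7.31 ± 0.59 in DMSO (SD, n = 2 each) and 8.57 ± 0.58 and 6.73 ± 0.75 with WX-02-23 (SD, n = 3 each). At these 4 sites DMSO and WX-02-23 differed by less than the spread between replicates.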

How the data were processed

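ATAC-seq peak lists of 9 libraries were analysed, 3 per group. The submitters' processing notes name Bowtie2, MACS2 and hg19. Tool versions, settings, the read-end shift, duplicate removal and any control library were not given in the sources that were used. The authors' deposited lists give per peak a fold enrichment (a ratio), a −log10 p, a −log10 q, a summit and a score that is 10 times the −log10 q, cut to a whole number. Lists were called per library and each value is set within its own library. Coordinates are hg19, written from 1.

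Lists were shortened, merged and counted as the report states, with numpy 2.4.6 and pandas 2.3.3 in Python 3.11.15. Where a list had several peaks in a region, the one with the highest −log10 p was used. Fragments at the summit were solved from fold and p under the Poisson formula of MACS2, with a tolerance of 0.002 in −log10 p. They may be reads or read pairs. Ranks were compared with limma 3.58.1 in R 4.3.3, two-sided, with a variance trend, at an adjusted p of 0.05. The fit was tested on simulated data. The share of intervals that 2 lists had in common exactly reached at most 0.116%, so no library was a copy of another.

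The members and lists were chosen with earlier results of these data known. Named regions follow a rule by weakest rank: the first 12 members held by 6 lists, the first 4 held by 5, the first 4 comparison regions, the 2 weakest members, the first 2 of each kind just outside, and the first 4 per direction by limma p, where no member passed in one direction. Motifs, gene lists and cell markers need hg19 sequence or annotation and were not analysed here. Alternatives were list length, threshold, overlap, summit windows, strictness, rank scale, a replicate block and leaving out each library.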

Additional observations from a re-analysis of the deposited data

How the results depend on the processing

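Counts for members, regions absent with WX-02-43 and regions absent with WX-02-23 stayed within 1.5 times with full-length lists, a −log10 q of at least 5, 50% coverage and summit windows. The 50000 strongest peaks gave 313 members and 233 regions absent with WX-02-43, from shorter lists. Requiring all 6 lists gave 148, 95 and 680 by construction. Without each library the 3 counts ran from 701 to 1120, 570 to 894 and 1697 to 2149, as fewer lists had to meet the criterion. Of the 16 first members, 3 met the criterion with full-length lists and 3 with the 50000 strongest peaks.

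For WX-02-23 against WX-02-43, limma without the variance trend called 141 regions stronger with WX-02-23, 146 with WX-02-43 and 10 members; the cause was not tested. The 50000 strongest peaks gave 435 and 571 regions from fewer tested, and no member could be tested. Regions held by at least 5 of 6 lists brought in all 530 members, of which 42 (7.92%) passed towards WX-02-23 and 0 towards WX-02-43. Of all 64801 regions in that fit, 1.78% and 2.09% passed. At an unadjusted p under 0.05 by limma the counts were 114 and 3 among members, and 4624 and 4679 among all regions. Without each library the counts of all regions ran from 575 to 840 and 662 to 1077, with 12 to 27 of the 168 to 256 members tested. Replicate numbers showed no pairing in the rank scores: deviations of same-numbered stereoprobe libraries from their group means correlated at -0.015, -0.011 and -0.003. The labels do not say whether same-numbered libraries were handled together. The replicate block gave 1011 and 1208 regions and 18 members. Members had 12 to 18 fragments at the median summit, and the part of depth in which peaks were called was not tested.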
